A study of Mus musculus with 12 samples.

Results

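The mitochondrial ribosomal proteins are the nuclear-encoded proteins of the mitoribosome, and their genes were chosen by symbol: every symbol that begins with Mrpl (large subunit) or Mrps (small subunit) followed by a digit, with pseudogene symbols left out. The rule found 78 of the 11614 genes in the deposited tables, used no measured value, and met 0 pseudogene symbols. The tables hold RNA sequencing values of kidney cortex from C57BL/6J mice, an inbred strain. NASH stands for non-alcoholic steatohepatitis, in which fat builds up in an inflamed liver. The groups were NASH mice at 12 weeks (Western diet plus CCl4, a solvent that injures the liver; 6 mice), control mice at 12 weeks (normal diet with corn oil; 6 mice), NASH mice at 24 weeks (the same regimen; 10 mice) and control mice at 24 weeks (8 mice), with equal numbers of males and females and 3 libraries per group. Diet and CCl4 differ together between NASH and control mice and cannot be told apart. The labels do not say which mice, or how many, are behind a library, and the p-values below measure only the spread between these libraries.

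The mitoribosome translates the few messages of the mitochondrial genome, all of which code for subunits of the respiratory chain and ATP synthase. Its RNAs come from mitochondrial DNA, while every one of its proteins is made in the cytosol and imported, so the organelle depends on nuclear genes in step with its own. Part of the proteins descend from bacterial ribosomal proteins and the rest were added during the evolution of mitochondria. The proximal tubule, the most abundant cell of the kidney cortex, is rich in mitochondria and draws its energy mainly from respiration. By role, the members comprised 30 large-subunit proteins with a bacterial counterpart, 21 mitochondria-specific large-subunit proteins, 16 small-subunit proteins with a bacterial counterpart and 10 mitochondria-specific small-subunit proteins. Mrps18a and Mrps30 were counted with the large subunit, where their products sit despite their names. The last member, Mrps36, is a component of the oxoglutarate dehydrogenase complex and not a ribosomal subunit.

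Estimated depth, over the 11614 genes, ranged from 7170000 to 14100000 reads per library. It was lowest in NASH at 12 weeks, replicates 2 and 3 (7170000 and 8230000), and in NASH at 24 weeks, replicate 3 (8280000). Slc34a1, a phosphate carrier of the proximal tubule, lay between 16.3 and 16.9 on the log2 scale in every library. The 4 libraries numbered replicate 1 stood apart: Xist, a transcript of the inactive X chromosome, was at 10.6 to 11.5 in them and at 2.97 to 4.86 in the 8 others, and Ddx3y, a Y-linked gene, was at 2.48 to 4.25 against 8.95 to 9.62. Over all genes, 1741 were higher in all 4 replicate 1 libraries than in any other library and 489 lower, against 1 member higher (Mrps25) and 1 lower (Mrps18b). Because each group holds 1 such library, each comparison is also given with replicate number as a block, a fit that removes the mean of each number, and without replicate 1. Adipocyte transcripts were highest in control at 24 weeks, replicate 1, with a summed level of 14.9 against 9.67 to 11.9 elsewhere. All of their 9 markers were measured, and their part in the results was not tested.

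All members were well expressed. Their median mean level was 9.18 on the log2 scale, against 8.62 for all genes, and 62 of 78 lay above the median gene; the lowest value of any member in any library was 6.69, for Mrps18b in NASH at 24 weeks, replicate 1. Their transcripts are short, with a median of 1036 bases against 2893.5 for all genes, and 73 of 78 are shorter than the median gene. Per 1000 bases of transcript their median log2 level was 9.07, against 7.08 for all genes, with 73 members above the median. By class, the median log2 level per 1000 bases was 9.32 for large-subunit proteins with a bacterial counterpart, 9.01 for mitochondria-specific large-subunit proteins, 8.87 for small-subunit proteins with a bacterial counterpart and 8.67 for mitochondria-specific small-subunit proteins. The median gene's own SD over the 12 libraries was 0.29 and the members' median SD 0.20 on the log2 scale, without regard to group.

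Among the members themselves, the level per 1000 bases spanned 6.0 to 11.6 on the log2 scale. Mrps21, a small-subunit protein on chromosome 3, was highest at 11.6 ± 0.28 (SD over 12 libraries). Mrpl12 followed at 11.5 ± 0.21; its product forms the flexible stalk that recruits translation factors and also binds the mitochondrial RNA polymerase. Mrpl42 (11.2 ± 0.20), Mrpl20 (10.6 ± 0.29) and Mrpl30 (10.5 ± 0.17) came next. Mrps21 and Mrpl12 differed by less than their spread, as did Mrpl20 and Mrpl30. At the other end lay Mrpl19 at 5.99 ± 0.16, Mrpl1 at 6.43 ± 0.20, Mrps25 at 6.43 ± 0.34, Mrpl17 at 6.78 ± 0.15 and Mrpl15 at 7.04 ± 0.22. Mrpl19, Mrps25, Mrpl1 and Mrpl17 have long models, of 5000, 6065, 3449 and 6712 bases, so their level per length depends on how much of the model is used in kidney. The most even member was Mrpl45, with an SD of 0.088 on the log2 scale, and the most variable was Mrps6, with 0.47.

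The first comparison asks how the kidney cortex of NASH mice differed from that of control mice at 12 weeks. The members lay higher in NASH: 67 of 78 had a positive log2 change, with a median of 0.22, while 4688 of all 11614 genes had one, with a median of -0.080. In 28 members every NASH library exceeded every control library (8.14% of all genes did), and in 1, Mrpl3, every NASH library was lower (14.4% of all genes). No single member passed the test without the block: 0 of 78 were called at a limma adjusted p under 0.05, against 6 of 11614 genes (0.0517%). An unadjusted limma p under 0.05 was found in 17 of 78 members, all higher in NASH. Of all 11614 genes, 1684 had one, in either direction. With the replicate block, 11 members were called, all higher in NASH, beside 1494 genes called in either direction (12.9%) and 350 called higher (3.01%). Without replicate 1 in every group the median of the members was 0.17 and 1 member was called, beside 3.31% of all genes.

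**Figure D1:**
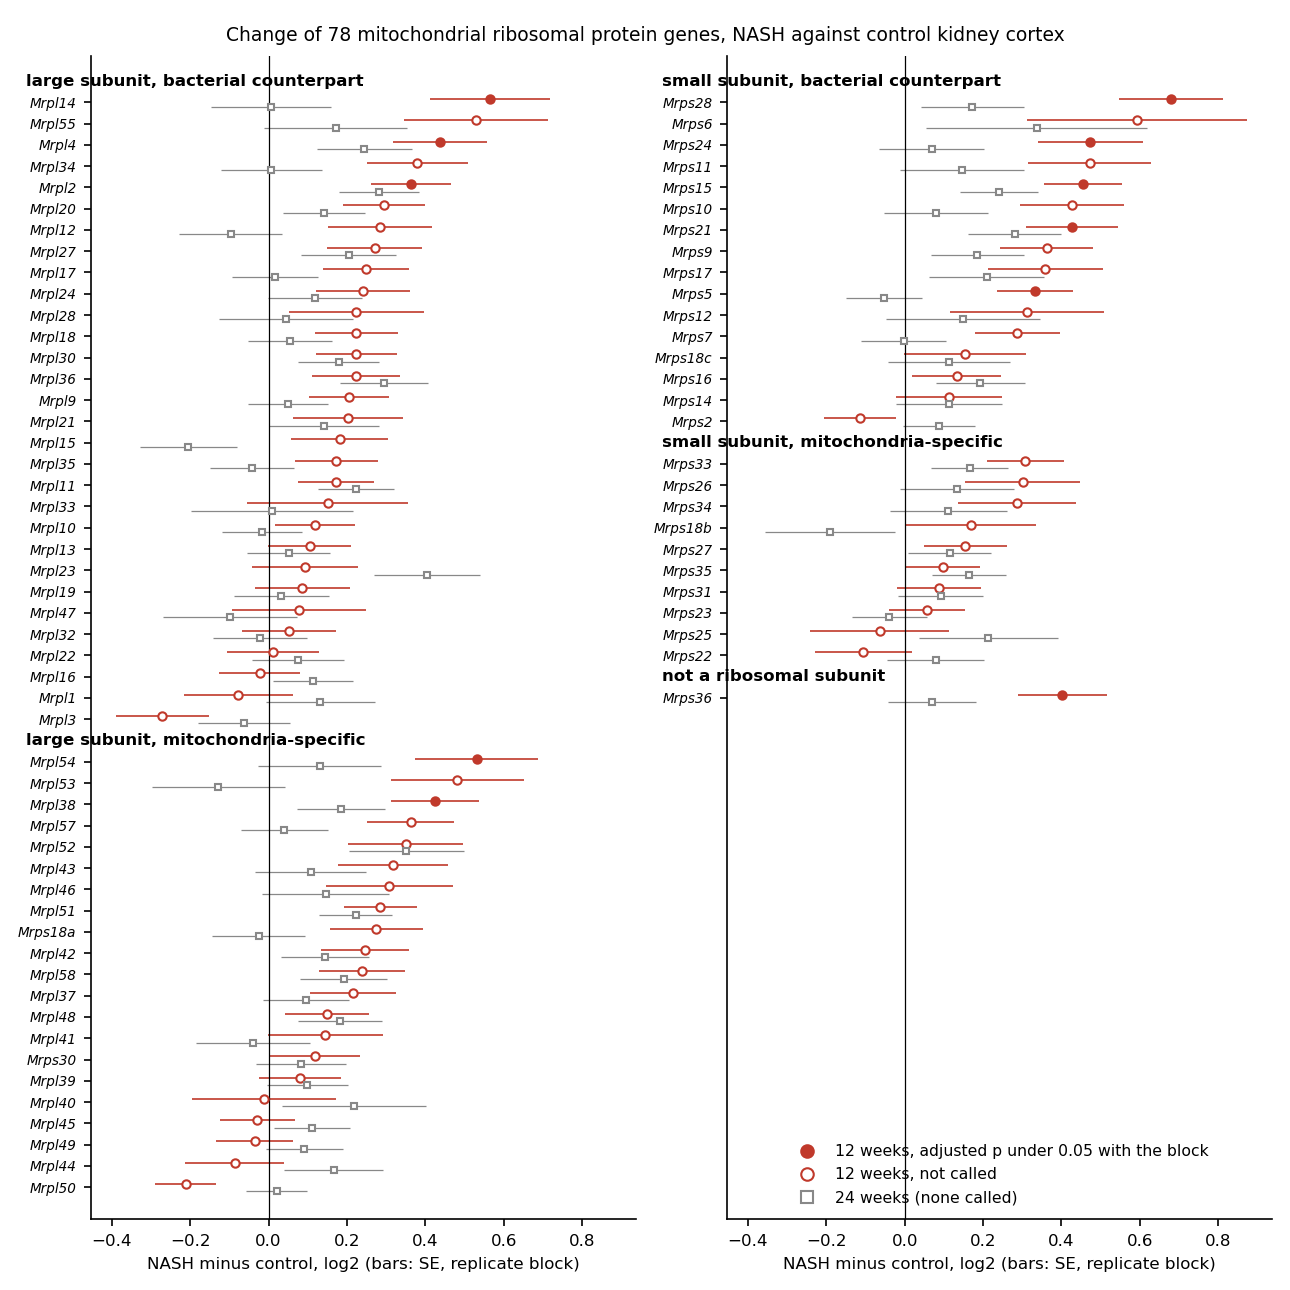
Log2 change, NASH minus control, of each of the 78 members, grouped by role; red circles are 12 weeks and grey squares 24 weeks, with standard errors from the fit with the replicate block, and filled circles mark an adjusted p under 0.05 in that fit. At 12 weeks 67 members lie right of 0 and 11 are filled; at 24 weeks 64 lie right of 0 and none is filled.

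Small-subunit proteins with a bacterial counterpart held 5 of the 11: their median log2 change was 0.36, with 15 of 16 positive. Mrps28 had the largest change of any member. Its log2 values were 8.17, 8.61 and 8.78 in NASH, against 7.50, 8.16 and 7.87 in controls. Every NASH library lay above every control library, by little between the first NASH library and the second control library. The change was 0.68 (SE 0.21, or 0.13 with the block), 1.60-fold, with an adjusted p of 0.27 without and 0.014 with the block. It stayed called with the block in 11 of 12 fits that left out 1 library each, with an adjusted p of 0.067 without control at 12 weeks, replicate 3. Mrps15, which binds the ribosomal RNA of the small subunit, read 8.90, 8.94 and 8.76 in NASH, against 8.47, 8.50 and 8.27 in controls. These groups were separated by more than the range within either. Its change of 0.45 (SE 0.12) had the smallest unadjusted p of the members, 0.0034, with an adjusted p of 0.26 without and 0.019 with the block.

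Mrps24, the counterpart of a bacterial protein at the messenger entry channel, read 9.37, 9.42 and 9.53 in NASH and 8.71, 9.09 and 9.09 in controls. The groups did not overlap, and the first control library lay lowest. Its change was 0.47 (SE 0.14; adjusted p 0.26, or 0.043 with the block). Mrps21 read 10.50, 10.84 and 10.61 in NASH and 10.02, 10.39 and 10.26 in controls, a change of 0.43 (SE 0.16; adjusted p 0.29, or 0.040 with the block). Mrps5, at the messenger entry site of the small subunit, read 9.50, 9.76 and 9.54 in NASH and 9.22, 9.31 and 9.27 in controls, a change of 0.33 (SE 0.12; adjusted p 0.29, or 0.047 with the block). Neither gene's groups overlapped. Other members of this class were not called. Mrps6 had a change of 0.59 with wide spread: 9.86, 9.32 and 10.29 in NASH against 9.30, 9.49 and 8.88 in controls, so that replicate 2 went the other way. Mrps11 had a change of 0.47 (adjusted p 0.072 with the block), with 8.56, 8.52 and 8.34 in NASH above 7.64, 8.18 and 8.18 in controls. Mrps12, the decoding-centre protein, had 0.31, and Mrps18c 0.15. Mrps2 was the class's 1 negative value, at -0.11 (SE 0.10).

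Large-subunit proteins with a bacterial counterpart had a median log2 change of 0.20, with 27 of 30 positive and 3 called with the block. Mrpl14 lies on the face that meets the small subunit and is bound by the assembly factor Malsu1. It read 9.32, 9.56 and 9.18 in NASH, against 8.25, 9.15 and 8.96 in controls. The lowest NASH library lay just above the highest control, and the first control library lay far below the rest. The change was 0.56 (SE 0.22; adjusted p 0.29, or 0.038 with the block). Mrpl4, which lines the exit tunnel, read 10.47, 10.72 and 10.37 in NASH and 9.68, 10.38 and 10.19 in controls, with overlap at 1 library; its change was 0.44 (SE 0.18; adjusted p 0.31, or 0.039 with the block). Mrpl2, near the peptidyl transferase centre, read 9.73, 9.94 and 9.72 in NASH and 9.12, 9.65 and 9.53 in controls, with no overlap and a change of 0.36 (SE 0.16; adjusted p 0.34, or 0.042 with the block). In all 3 genes control replicate 1 was the lowest value.

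Of the uncalled members of that class, Mrpl55 had a change of 0.53, Mrpl12 of 0.28 and Mrpl32, whose product is cut by the m-AAA protease on import, of 0.052. Mrpl3, next to the peptidyl transferase centre, was the lowest of all members. It read 9.01, 8.89 and 8.91 in NASH, against 9.40, 9.09 and 9.13 in controls. All 3 NASH libraries were below all controls, a change of -0.27 (SE 0.16; adjusted p 0.44, or 0.15 with the block). Mrpl1 had a change of -0.077.

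Mitochondria-specific large-subunit proteins had a median log2 change of 0.24, with 16 of 21 positive and 2 called with the block. Mrpl38, of the central protuberance, read 10.08, 10.50 and 10.16 in NASH and 9.53, 10.05 and 9.88 in controls, a change of 0.42 (SE 0.19; adjusted p 0.34, or 0.037 with the block). Mrpl54 read 9.54, 9.98 and 9.51 in NASH and 8.58, 9.50 and 9.35 in controls, a change of 0.53 (SE 0.24; adjusted p 0.35, or 0.049 with the block). In Mrpl54 the lowest NASH library exceeded the highest control by little, and the first control library lay far below the rest. Mrpl53 had a change of 0.48, Mrpl57 of 0.36, Mrps18a of 0.28, Mrps30 of 0.12 and Mrpl58, the peptidyl-tRNA hydrolase that frees stalled ribosomes, of 0.24; none was called. The negative values were Mrpl50 at -0.21 (10.89, 10.64 and 10.68 in NASH against 11.10, 10.88 and 10.86 in controls, lower in each replicate number), Mrpl44, which carries a ribonuclease III fold, at -0.086, Mrpl49 at -0.035, Mrpl45 at -0.029 and Mrpl40 at -0.012.

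Mitochondria-specific small-subunit proteins had the lowest class median, 0.13, with 8 of 10 positive, 0 called with the block and 0 whose groups did not overlap. Mrps18b had a change of 0.17, Mrps22 of -0.11 and Mrps25 of -0.064. Mrps25, Mrpl1, Mrpl44 and Mrpl49 were positive under quantile and median-of-ratios scaling, and Mrps22 under quantile normalization, so these low values have no settled sign. Mrps36, of the oxoglutarate dehydrogenase complex, read 9.20, 9.59 and 9.47 in NASH, against 8.96, 9.12 and 8.97 in controls. Its groups did not overlap, and its change was 0.40 (SE 0.15; adjusted p 0.29, or 0.043 with the block).

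**Figure D2:**
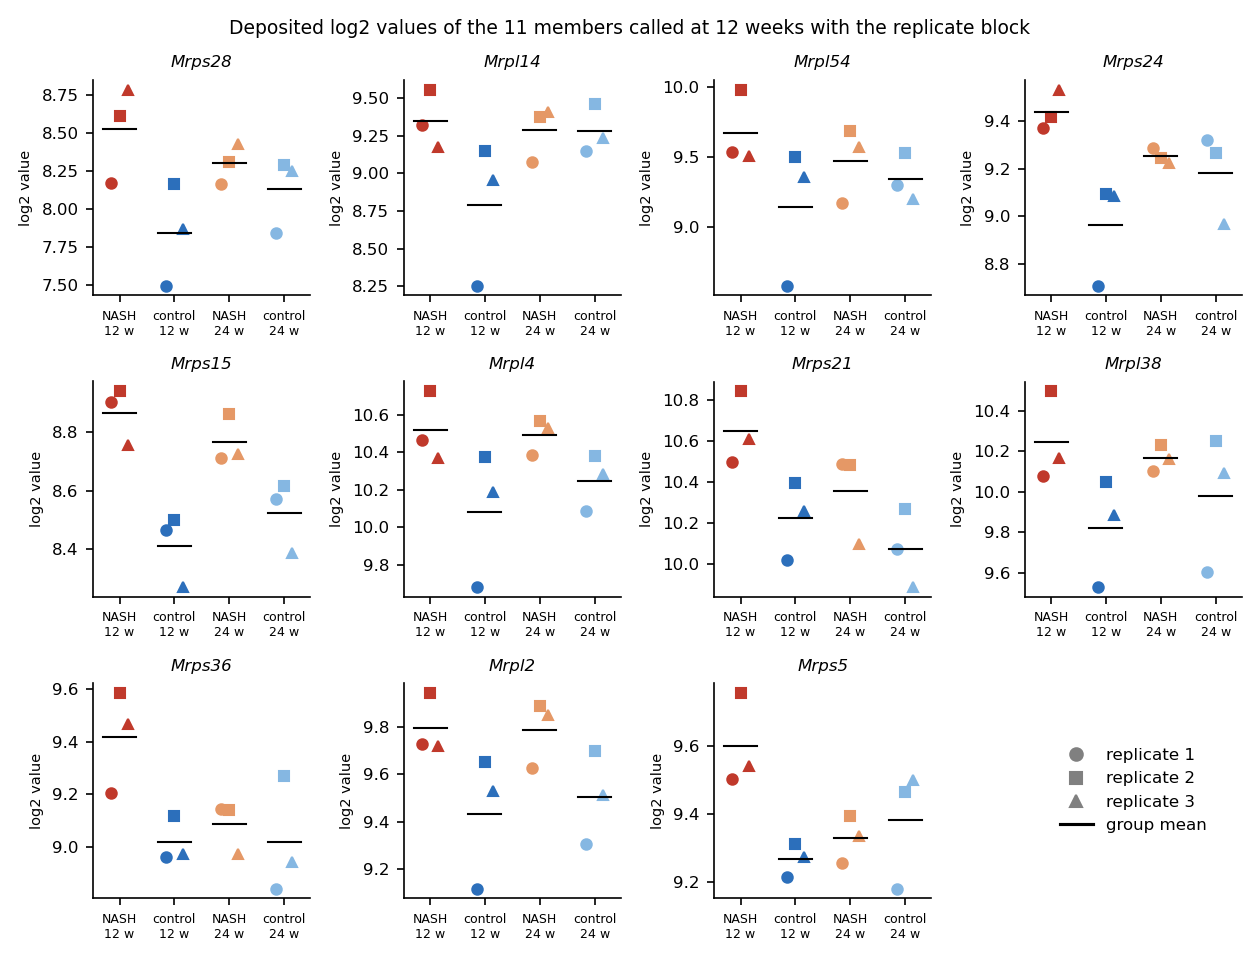
Deposited log2 values in every library of the 11 members called at 12 weeks with the replicate block; symbols mark the replicate number and bars the group means. NASH at 12 weeks is above control at 12 weeks within each number, and replicate 1 is the lowest 12-week control in all but Mrps15.

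The number of calls with the block changed with single libraries, for the members as for all genes. They numbered 0 without control at 12 weeks, replicate 3, 1 without control replicate 2, 2 without control replicate 1, 1 without NASH replicate 1, 1 without NASH replicate 2 and 8 without NASH replicate 3. In the same fits the share of all genes called was 2.18%, 3.53%, 5.85%, 2.81%, 5.13% and 9.5% in that order, against 12.9% with all libraries. Leaving out 24-week libraries, which only share the estimate of spread, gave 7, 5 and 5 without NASH replicates 1, 2 and 3 and 12, 5 and 4 without control replicates 1, 2 and 3, with 9.56% to 13.2% of all genes called. Mrps15 stayed called in 8 of these 12 fits, Mrpl38 in 7, Mrpl14 in 5, and the other 7 members besides Mrps28 in 1 to 4. The change of each of the 11 stayed positive in all 12 fits. The median change of the 78 members stayed between 0.16 and 0.29 with any 1 library left out.

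The members' shift at 12 weeks went with transcript length. Over all genes, the median log2 change was 0.25 in the shortest decile, the 1162 genes with transcripts of up to 1163 bases, and -0.33 in the longest decile, with the deciles between in descending order. Of the 78 members 45 lie in the shortest decile. Their median was 0.28, beside 0.25 for all genes of that decile, and 8 of the 45 were called higher with the block, beside 13.8% of that decile. In the second decile the medians were 0.22 for 15 members and 0.12 for all genes; in the third, 0.12 for 7 members and 0.028 for all genes; in the fourth, 0.11 for 5 members and -0.025 for all genes. The other 6 members are longer. Mrpl17, whose model is the longest at 6712 bases, had a change of 0.25 where its decile by model length had a median of -0.33.

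**Figure D3:**
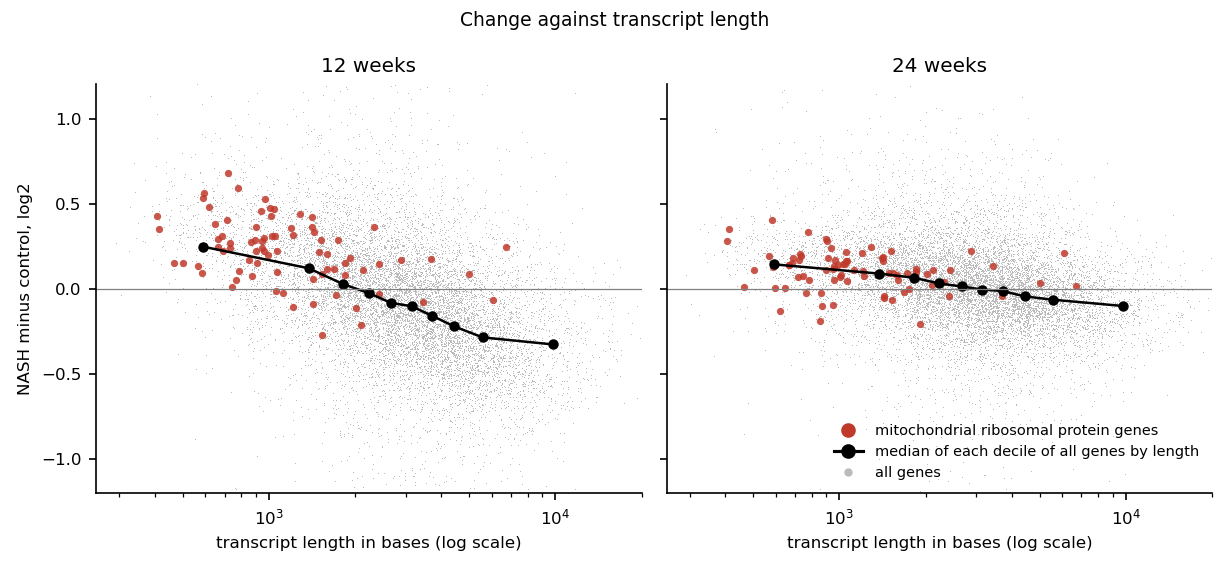
Log2 change, NASH minus control, against transcript length on a log axis at 12 weeks (left) and 24 weeks (right); red points are the 78 members, grey points all genes, and black points the median of each decile of genes by length. At 12 weeks the medians run from 0.25 in the shortest decile to -0.33 in the longest; at 24 weeks from 0.14 to -0.10.

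When each library's trend on length and GC content was removed, the members' median change at 12 weeks was -0.010, beside -0.078 for all genes. Then 38 of 78 members were positive, and 0 were called with the block, beside 4.1% of all genes. The class medians became -0.035 for large-subunit proteins with a bacterial counterpart, -0.013 for mitochondria-specific large-subunit proteins, 0.15 for small-subunit proteins with a bacterial counterpart (11 of 16 positive) and -0.023 for mitochondria-specific small-subunit proteins. Of the 11 members called before, Mrps28 had 0.29 after removal, Mrps5 0.24, Mrps15 0.15, Mrps24 0.15 and Mrps36 0.12; Mrpl38 and Mrpl4 had 0.070 and 0.050; Mrpl14, Mrps21, Mrpl2 and Mrpl54 had -0.011, -0.033, -0.059 and -0.069. The highest values after removal were 0.54 for Mrpl17, the longest member, and 0.42 for Mrpl57, of 2321 bases, and Mrpl23 was lowest at -0.48. Removal used the length of the gene model, so the value of Mrpl17 depends on how much of its long model is used in kidney.

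The same pattern stood in single libraries. The members' median deviation from their 12-library means was 0.12, 0.19 and 0.11 in NASH at 12 weeks and -0.18, 0.054 and -0.062 in control at 12 weeks. It was 0.016, 0.0049 and -0.0064 in NASH at 24 weeks and -0.11, 0.060 and -0.20 in control at 24 weeks. All 3 NASH libraries at 12 weeks were above all other libraries, while the control libraries differed among themselves by as much as the groups did. The shortest decile of all genes had deviations of 0.15, 0.14 and 0.10 in NASH and -0.26, 0.033 and -0.12 in control at 12 weeks, close to those of the members. The longest decile ran the other way in the extreme libraries, with 0.42 in control at 12 weeks, replicate 1, and -0.34 in NASH at 12 weeks, replicate 2, which is also the shallowest library. The members' share of each library's scaled total ranged from 0.339% to 0.436%. In whole tissue, a different number of cells of a type and a different amount of message per cell cannot be told apart. The summed level of 10 proximal tubule markers lay between 17.6 and 18.0 in NASH and between 17.8 and 18.0 in control libraries at 12 weeks. That of 6 loop and distal tubule markers was 14.8 to 16.2 in NASH and 14.9 to 15.9 in controls. For 5 collecting duct markers it was 12.9 to 13.5 in NASH and 12.6 to 13.0 in controls. Single markers of these lists differed in direction. Aqp2 of the collecting duct was at 1.46, and Calb1 and Slc12a3 of the distal tubule at -1.15 and -0.66. Their adjusted p was 0.027, 0.026 and 0.024 with the block and 0.26, 0.50 and 0.58 without it. Umod, of the loop and distal list, read 15.4, 14.1 and 15.6 in NASH and 14.5, 14.7 and 13.8 in controls. Transcripts of hepatocytes and red cells were present as well: the summed level of 7 hepatocyte markers was 11.5 to 12.8 in NASH and 10.3 to 10.8 in control libraries at 12 weeks, with 6 of 7 higher and 2 called with the block. That of 5 erythroid markers was 10.6 to 12.7 in NASH and 10.2 to 10.6 in controls, with 5 of 5 higher. Their part in the members' shift was not tested.

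**Figure D4:**
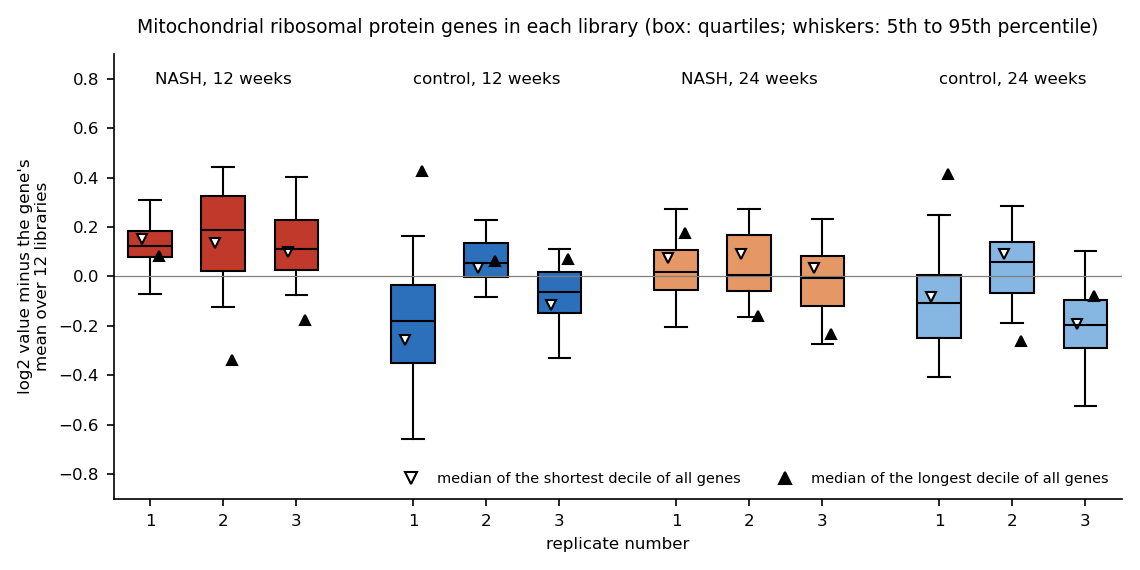
Deviation of the 78 members from their own mean over 12 libraries, by library; boxes are quartiles with the median, whiskers the 5th to 95th percentile, open triangles the median of the shortest and filled triangles that of the longest decile of all genes. The open triangles follow the boxes from library to library, and the filled triangles are far above them, at 0.42 and 0.41, in replicate 1 of both control groups.

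At 24 weeks the same comparison gave smaller changes. The members' median log2 change was 0.11, with 64 of 78 positive, beside 0.010 for all genes, of which 6052 were positive. Called members numbered 0 without and with the block; of all genes, 0 (0.0%) and 1 (0.00861%) were called. In 7 members every NASH library was above every control library (4.56% of all genes) and in 0 every one was below (2.65%). Mrpl23, at the exit of the peptide tunnel, was the only member with an unadjusted limma p under 0.05 (0.041, against 347 of 11614 genes). With the block 8 of 78 members had one, against 1124 of 11614 genes in either direction. Mrpl23 read 9.12, 8.90 and 8.86 in NASH, against 8.71, 8.66 and 8.31 in controls. Its groups did not overlap, and its change was 0.40 (SE 0.17).

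Other large positive values at 24 weeks were 0.35 for Mrpl52, 0.34 for Mrps6, 0.29 for Mrpl36, 0.28 for Mrpl2 and Mrps21 each, and 0.24 for Mrps15 and Mrpl4 each. Mrps15 read 8.71, 8.86 and 8.73 in NASH and 8.57, 8.61 and 8.39 in controls, again without overlap. The lowest values were -0.20 for Mrpl15, -0.19 for Mrps18b, -0.13 for Mrpl53, -0.098 for Mrpl47, -0.097 for Mrpl12, -0.063 for Mrpl3, -0.053 for Mrps5 and -0.042 for Mrpl35. Of the members always described for their special roles, Mrpl58 had 0.19, Mrpl44 0.17, Mrps12 0.15, Mrps18c 0.11, Mrps30 0.083, Mrps36 0.069, Mrpl57 0.040, Mrpl32 -0.021 and Mrps18a -0.025. With the length and GC trend removed the median was 0.047, beside 0.011 for all genes, with 51 members positive. Without replicate 1 the median was 0.092 and 0 members were called, beside 0.103% of all genes.

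The difference of the NASH effects, 24 minus 12 weeks, had a median of -0.14 over the members, beside 0.090 over all genes. No member was called without or with the block (0.0% and 0.00861% of all genes), and at an unadjusted p under 0.05 there was 1 member without the block and 5 with it, against 425 and 1489 of all genes, so the smaller values at 24 weeks were not shown to differ from those at 12 weeks in any member. The lowest differences were -0.61 for Mrpl53, -0.56 for Mrpl14 and -0.51 for Mrps28, and the highest 0.31 for Mrpl23, 0.28 for Mrps25 and 0.25 for Mrpl44. The median was -0.040 without control at 12 weeks, replicate 1, and 0.0083 with the trend removed. Without replicate 1 in every group it was -0.059, with 0 members called beside 0.629% of all genes.

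Within a group, the members' median log2 change at 24 against 12 weeks was -0.13 in NASH mice, with 11 of 78 positive, beside 0.020 for all genes. Time on the regimen and any difference in age cannot be told apart. In control mice it was -0.042, with 32 positive, beside -0.081. No member was called in either group without the block (0.0% of all genes in each) or with it (0.0258% in NASH and 0.172% in control mice); at an unadjusted p under 0.05 there were 3 members in NASH and 5 in control mice, against 553 and 910 of all genes. In NASH mice the lowest changes were -0.33 for Mrps36, -0.31 for Mrpl20 and -0.31 for Mrps18a, and the highest 0.18 for Mrpl23, 0.15 for Mrps35 and 0.14 for Mrps12. In control mice the lowest were -0.34 for Mrpl3, -0.32 for Mrpl50 and -0.31 for Mrps25, and the highest 0.49 for Mrpl14, 0.48 for Mrpl53 and 0.32 for Mrpl15. Mrpl14 in controls read 9.15, 9.46 and 9.24 at 24 weeks and 8.25, 9.15 and 8.96 at 12 weeks. These comparisons share their libraries with those of NASH against control, so the low 12-week control value of Mrpl14 enters both. Without replicate 1 the medians were -0.13 in NASH and -0.083 in control mice, with 0 members called in either, beside 4.66% and 6.5% of all genes.

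Related genes were read from lists of the same machinery. All calls in these lists are from the fit with the block. Without it, 0 of the 56 genes so called passed, with adjusted p from 0.19 to 0.33. At 12 weeks the fit with the block called 12.9% of all genes in either direction and 3.01% higher. The 5 mitoribosomal subunits with other names had a median change of 0.42 at 12 weeks. With the block 2 of them were called higher, Chchd1 at 0.54 (adjusted p 0.040) and Aurkaip1 at 0.44 (adjusted p 0.024). Among the proteins that build or serve the mitoribosome, the 28 measured assembly factors had a median of -0.044, and 1 was called with the block, the RNA helicase Dhx30, lower at -0.56 (adjusted p 0.013). Medians were -0.080 for 15 translation factors, -0.090 for 16 mitochondrial aminoacyl-tRNA synthetases and 0.023 for 18 genes of mitochondrial transcription, RNA processing and DNA maintenance, with 0 called in each. The 15 regulators of mitochondrial biogenesis had a median of -0.14, with 1 called, Gabpa, lower at -0.62. Esrra went the other way, at 0.45, and was not called (adjusted p 0.074 with the block). Pprc1 was at -0.49 and not called (adjusted p 0.085 with the block).

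The nuclear genes of the complexes that receive the mitoribosome's products were also higher at 12 weeks. The 80 nuclear genes of the respiratory chain and ATP synthase, taken by symbol and including Atp5sl, a complex I assembly factor, had a median of 0.36 at 12 weeks, with 28 called higher and 0 lower with the block; Uqcrq of complex III was at 0.89 (adjusted p 0.014) and Cox7c of complex IV at 0.62 (adjusted p 0.0086). The 86 cytosolic ribosomal proteins, which serve another ribosome, had a median of 0.30 with 18 called higher and 0 lower. Both lists are short genes, with median lengths of 703 and 693.5 bases. In the shortest decile of all genes, up to 1163 bases, 13.8% were called higher with the block. With the trend removed the medians of both lists were 0.016 and -0.027. Mitochondrial import (30 genes) had a median of 0.22, with Timm13, Timm17a and Tomm5 called higher and Timm29 lower. Among 13 chaperones and proteases Clpx, the unfoldase of the ClpXP protease, was called lower at -1.10 (adjusted p 0.0039) and Phb2 higher at 0.32 (adjusted p 0.050). With the trend removed, Uqcrq and the assembly factor Atp5sl, Dhx30 and Clpx stayed called (adjusted p 0.041, 0.037, 0.011 and 0.010), and none of the 18 cytosolic ribosomal proteins, the import genes, Phb2, Chchd1 or Aurkaip1 did. At 24 weeks the medians were 0.13 for the respiratory chain list and 0.21 for cytosolic ribosomal proteins, with 0 called in either.

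**Figure D5:**
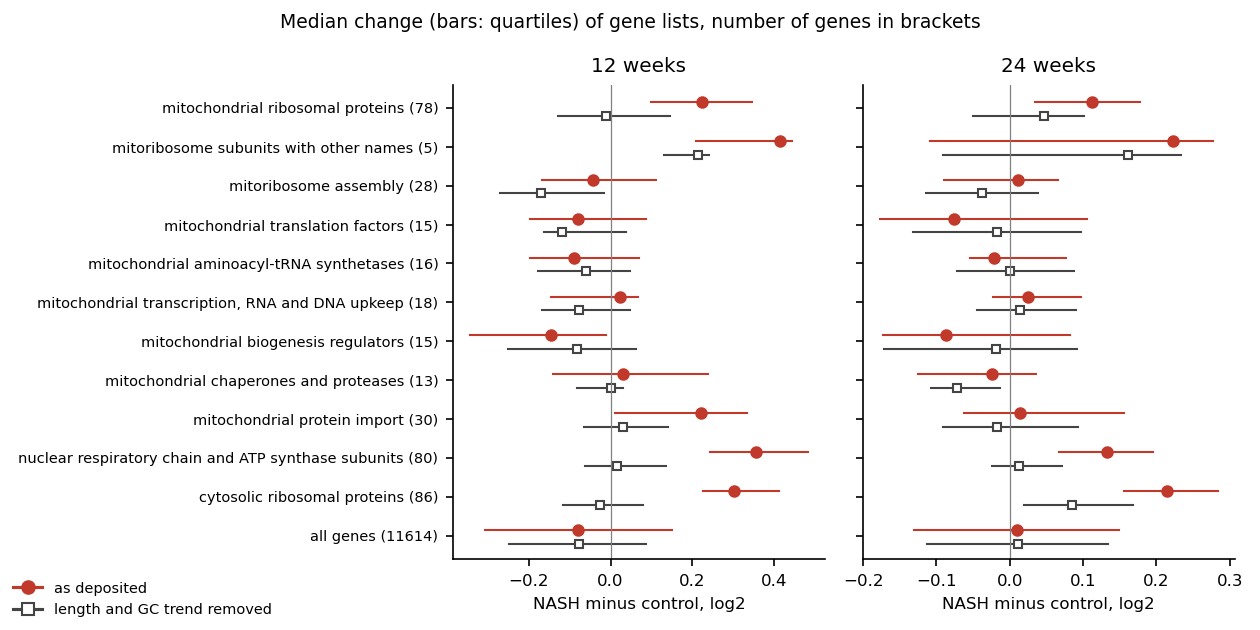
Median log2 change, NASH minus control, of the members and related lists at 12 weeks (left) and 24 weeks (right), with quartiles as bars and the number of genes in brackets; red circles are deposited values and open squares values with the length and GC trend removed. At 12 weeks the deposited medians of the members, respiratory chain subunits and cytosolic ribosomal proteins lie at 0.22, 0.36 and 0.30, and with the trend removed at -0.010, 0.016 and -0.027.

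Promoters were taken from RefSeq (GRCm38.p6), 250 bases before to 50 after the start, for the 69 of 78 members with an entry. Nuclear genes of mitochondria often carry sites for nuclear respiratory factor 1 (NRF1), for GABP of the ETS family and for YY1. Searched on both strands, the ETS motif CCGGAAG was in 37.7% of the members (26), against 20.0% of genes in the files with a promoter. The YY1 motif AAGATGGC was in 17.4% (12) against 5.38%, and the NRF1 motif, GCGCA and GCGC with any base between, in 18.8% (13) against 11.6%. No matches of different motifs overlapped. At least 1 of the 3 was found in 62.3% of members and 32.4% of genes. Members with any of them had a median change at 12 weeks of 0.22, and those with none 0.16. For single motifs the medians were closer. They were 0.25 with and 0.22 without NRF1, 0.24 and 0.22 for ETS, and 0.23 and 0.22 for YY1. Transcript length was not taken into account, and none of these differences was tested. The promoters of Mrps21, Mrps24, Mrpl14, Mrps11 and Mrpl3 are printed to show each motif in called members, the start shared by a pair, and a motif in the member with the lowest change. Each is 5′ to 3′ on the gene's strand, with motif matches in capitals.
Mrps21 (chr3:95871465-95871764, minus strand; NRF1 first, then ETS): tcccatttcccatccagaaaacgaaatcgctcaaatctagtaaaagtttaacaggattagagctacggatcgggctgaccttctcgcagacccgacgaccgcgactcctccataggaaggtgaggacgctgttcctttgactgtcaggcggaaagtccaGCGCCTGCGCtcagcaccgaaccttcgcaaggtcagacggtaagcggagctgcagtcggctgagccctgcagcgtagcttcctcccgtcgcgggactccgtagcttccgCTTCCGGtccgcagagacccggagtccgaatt
Mrps24 (chr11:5707652-5707951, minus strand; YY1, after the start): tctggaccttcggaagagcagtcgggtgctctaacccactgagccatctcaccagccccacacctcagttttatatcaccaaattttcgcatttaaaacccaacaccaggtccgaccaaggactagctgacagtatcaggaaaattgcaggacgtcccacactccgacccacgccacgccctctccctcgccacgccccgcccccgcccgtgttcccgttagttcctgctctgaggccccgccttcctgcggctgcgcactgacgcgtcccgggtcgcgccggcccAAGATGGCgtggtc
Mrpl14 (chr17:45686099-45686398, plus strand; NRF1): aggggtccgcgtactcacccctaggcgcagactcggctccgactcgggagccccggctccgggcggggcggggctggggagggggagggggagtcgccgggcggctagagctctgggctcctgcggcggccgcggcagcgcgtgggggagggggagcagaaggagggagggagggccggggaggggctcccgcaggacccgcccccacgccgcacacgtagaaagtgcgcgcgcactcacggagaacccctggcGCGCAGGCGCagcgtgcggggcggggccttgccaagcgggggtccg
Mrps11 (chr7:78782881-78783180, plus strand; YY1): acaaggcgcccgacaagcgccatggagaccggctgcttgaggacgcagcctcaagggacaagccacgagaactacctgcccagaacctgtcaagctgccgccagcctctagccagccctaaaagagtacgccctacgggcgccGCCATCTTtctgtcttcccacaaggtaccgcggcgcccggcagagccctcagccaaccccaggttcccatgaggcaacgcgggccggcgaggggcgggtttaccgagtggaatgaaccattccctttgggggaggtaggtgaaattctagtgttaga
Mrpl3 (chr9:105053018-105053317, plus strand; ETS): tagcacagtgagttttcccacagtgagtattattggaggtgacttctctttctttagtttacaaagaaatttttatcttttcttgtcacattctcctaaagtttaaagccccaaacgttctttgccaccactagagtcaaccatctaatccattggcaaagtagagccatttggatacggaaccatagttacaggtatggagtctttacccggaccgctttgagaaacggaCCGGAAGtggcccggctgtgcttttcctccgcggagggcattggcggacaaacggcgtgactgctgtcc

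The RefSeq start of Mrps21 used here lies upstream of the gene end given in the deposited tables. Mrps24 carries AAGATGGC and a change of 0.47, and Mrpl49 carries it with a change of -0.035. Mrpl3 carries CCGGAAG with the lowest change of the members. Gabpa, the DNA-binding subunit of GABP, was called lower at 12 weeks with the block: its log2 mean was 9.19 in NASH and 9.81 in controls, a change of -0.62 (SE 0.19; adjusted p 0.26 without and 0.015 with the block, and 0.080 with the trend removed as well).

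Starts on opposite strands within 500 bases of each other occurred in 33.3% of the members (23), against 17.4% of genes. Mrps11 and Mrpl46, of the small and the large subunit, begin 42 bases apart, and their changes at 12 weeks were 0.47 and 0.31. The other 21 have a partner that is not a member, of which 17 are in the deposited tables. The median change of these partners was -0.042, with 7 of 17 positive, and that of the members beside them 0.22, with 14 of 17 positive. The median of all genes was -0.080. These are deposited changes, which went with transcript length, and most members are shorter than the median gene. The part of length in this difference was not tested. Fau, which encodes a cytosolic ribosomal protein fused to a ubiquitin-like one, had 0.55 while Mrpl49 had -0.035. Hira, a histone chaperone, had -0.62 while Mrpl40 had -0.012. Twnk, the mitochondrial DNA helicase, had 0.053 beside 0.32 for Mrpl43, and Sars2, the mitochondrial seryl-tRNA synthetase, 0.10 beside 0.31 for Mrps12.

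Several members share exonic sequence with another gene, and the sources used here do not say whether counting used strand. By the GENCODE annotation 26 of 78 share some exonic bases and 15 share over 10%. Mrpl53 lies within Gm42688 by all of its exonic bases, Mrps18b shares 59.1% with Gm16279, Mrps25 58.2% with Nr2c2 and Mrpl19 39.2% with Gcfc2. Mrpl24 shares 38.2% with Rrnad1. Mrps6 shares 36% with Gm49711 and 18.8% with the inositol carrier Slc5a3, both on the same strand. The values of these members are uncertain for that reason. None of the 11 members called at 12 weeks with the block shares exonic bases with another gene.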

How the data were processed

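BWA, limma and the mm10 build of the mouse genome are named per the submitters' processing notes; versions, the counting rule, the use of strand and the scaling are not given in the sources used here. The deposited values are on the log2 scale, normalized per the file headers, with 1 value per gene for 11614 genes in each of 12 libraries. Each library has 1 smallest step (1.00 to 1.96) that was taken to stand for 1 read. Depth was estimated from this step and covers only the 11614 genes. Among low values, under 60 steps, 85.4% to 91.5% came within 0.01 steps of a whole number. Starts, which count from 0 in the tables, were raised by 1.

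The deposited log2 values were fitted per gene with limma 3.58.1 in R 4.3.3, by 4 group means over all 12 libraries. The 2-sided moderated tests used a mean-variance trend and Benjamini-Hochberg adjustment over 11614 genes; a gene was called at an adjusted p under 0.05. The fit was tested on simulated data with changes larger than that of any member, so that test does not cover changes of the members' size. Each change is a difference of log2 means with its standard error (SE). Spline trends on log2 length and GC content (5 degrees of freedom each) were removed per library as an alternative; GC came from GENCODE transcripts for 99.7% of genes and all 78 members. Figures used matplotlib 3.10.9 in Python 3.11.15.

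All 18 pairs of same-numbered libraries of different groups had correlated deviations from the group means above 0.1 (0.19 to 0.74), the criterion used for pairing. The 12 pairs of replicate 2 with replicate 3 also lay above 0.1 (0.19 to 0.64), and no label explains the numbers. Deviations from a mean of 3 libraries sum to 0, so with replicate 1 apart, replicates 2 and 3 are pushed to the same side. The criterion therefore cannot show that replicate 2 or replicate 3 is paired across groups. The median correlation was 0.40 for 2 with 2, 0.43 for 3 with 3 and 0.36 for 2 with 3. All calls with the block depend on these numbers. Over the members alone 15 of the 18 pairs lay above 0.1, and the 3 with NASH at 12 weeks, replicate 3, were negative (lowest -0.21).

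At each time the members named are those called in either fit, the 8 largest changes in each direction and a fixed set with special roles; in the other comparisons, those called and the 3 largest in each direction. Others are named for overlap, promoters or levels. The members, lists and rules were chosen with earlier results of these data known.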

Additional observations from a re-analysis of the deposited data

How the results depend on the processing

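There were 36 alternatives at 12 weeks and 35 for the difference of effects, where a fit on the compared groups alone is not possible. The number of members called at 12 weeks was 0 in every fit without the block, except that on replicates 2 and 3 only. With the replicate block and all 12 libraries it was 11 on the deposited values and 0 with the length and GC trend removed. It was 21 with the block and quantile normalization, 22 with the block and median-of-ratios scaling, and 1 with replicates 2 and 3 only, where 10.6%, 11.9% and 3.31% of all genes were called. With 1 library left out it ranged from 0 to 12, the larger values all with the block. In the other 4 comparisons it was 0 under every alternative. The members' median change at 12 weeks stayed positive except with the length and GC trend removed, where it was -0.010 with or without the replicate block. The median difference of the NASH effects was 0.0083 with the trend removed and -0.23 with median-of-ratios scaling, in both cases with or without the block, and ranged from -0.19 to -0.040 with 1 library left out. The cause of these differences was not tested. The lowest value of any member, 6.69 on the log2 scale, is far above the step taken as 1 read.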
